A study of Rattus norvegicus with 50 samples.

Results

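Keratins are the intermediate filament proteins of epithelial cells. Each filament is built from pairs of a type I (acidic) and a type II (basic) keratin, and the pair in use marks the kind of epithelium. In the mammary gland the luminal cells that line ducts and alveoli carry simple-epithelial keratins such as Krt8, Krt18 and Krt19, while the basal cells around them, which contract to move milk, carry Krt5 and Krt14. Other pairs belong to stratified epithelia: Krt1 and Krt10 to the cornifying layers of skin, Krt4 and Krt13 to moist mucosa, and a large set to the hair root sheath and hair shaft.

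The members were taken by name: every gene whose symbol is Krt followed by a number, with an optional letter, and for which a probeset of the rat gene array carries that 1 symbol. They were 47 of the 18166 genes measured, each with 1 probeset. Of these, 6 are luminal or other simple-epithelial keratins (Krt7, Krt8, Krt18, Krt19, Krt20, Krt23), 3 are basal (Krt14, Krt15, Krt17), 7 belong to the skin epidermis, 5 to mucosa and cornea, 7 to the hair root sheath and 15 to the hair shaft, and 4 were put in no class (Krt42, Krt88, Krt90, Krt222). A further 7 rat keratin symbols were not analysed here because no probeset carries them alone. They are Krt5, the type II partner of Krt14, and Krt6a, Krt6c, Krt16, Krt71, Krt79 and Krt85.

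RNA of the caudal mammary glands of 50 female Sprague-Dawley rats was profiled, with 5 rats in each of 10 groups. The rats received diethyl phthalate (DEP, a solvent and fragrance carrier), methyl paraben (MPB, a preservative), triclosan (TCS, an antibacterial agent), a mixture (MIX) of all 3 chemicals, or olive oil (OIL), the vehicle. Dosing ran from postnatal day 1 to 180, through the milk of gavaged dams until weaning on day 28 and by gavage of the rats themselves afterwards, and all animals were killed on day 181. Each treatment was given to parous rats, which were mated on day 97 and had raised and weaned a litter, and to age-matched nulliparous rats, at doses chosen by the submitters to resemble human exposure. No group held siblings, and rats were killed at random stages of the estrous cycle. RNA came from one of 2 extraction kits (Promega or Zymo). Each DEP group held 1 Promega and 4 Zymo rats, and each other group 3 Promega and 2 Zymo rats. The whole gland was used, so fewer cells of a type and less RNA per cell cannot be told apart in any value below. The labelled tissue bore its markers: 7 milk protein genes had mean log2 signals of 11.05 to 13.70 and 10 adipocyte genes of 8.84 to 12.94.

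Krt8 and Krt18 code for the type II and type I partners of the main luminal filament and are neighbours. In the RefSeq annotation of the GRCr8 assembly Krt8 lies at chr7:135002886-135010339 on the minus strand and Krt18 at chr7:135036168-135039844 on the plus strand, so the genes are transcribed away from each other with 25.8 kb between their starts. Krt19 lies at chr10:85576235-85580952 and Krt23 at chr10:84930603-84946929, within the type I cluster that also holds Krt14, Krt15 and Krt17. Of the 47 members, all the type II genes and Krt18 lie on chromosome 7 and the other type I genes on chromosome 10. The 250 bases before the annotated start of the members that fell with DEP are shown for the 3 of these 4 genes whose promoters were found in the RefSeq table (Krt19 was not). They differ in which of the motifs searched for below they hold. Capitals mark the motifs.
Krt8, chr7:135010340-135010589, minus strand: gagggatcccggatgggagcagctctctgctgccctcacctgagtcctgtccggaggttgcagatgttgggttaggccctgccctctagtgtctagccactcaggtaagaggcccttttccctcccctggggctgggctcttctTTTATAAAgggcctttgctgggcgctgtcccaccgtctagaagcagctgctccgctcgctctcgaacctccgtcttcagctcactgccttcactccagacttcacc
Krt18, chr7:135035918-135036167, plus strand: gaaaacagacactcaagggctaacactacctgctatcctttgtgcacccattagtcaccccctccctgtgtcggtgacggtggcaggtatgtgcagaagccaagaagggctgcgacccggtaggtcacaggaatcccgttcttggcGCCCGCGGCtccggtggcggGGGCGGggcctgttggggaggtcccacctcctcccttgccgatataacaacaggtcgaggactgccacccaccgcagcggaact
Krt23, chr10:84946930-84947179, minus strand: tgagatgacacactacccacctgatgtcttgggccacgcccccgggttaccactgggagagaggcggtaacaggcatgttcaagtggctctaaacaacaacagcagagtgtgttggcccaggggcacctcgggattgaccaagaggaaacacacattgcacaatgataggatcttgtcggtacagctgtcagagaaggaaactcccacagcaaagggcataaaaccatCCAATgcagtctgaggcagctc

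Searched on both strands were TATAAA (the TATA box), CCAAT (the CCAAT box), GGGCGG (the GC box), GCCNNNGGC (AP-2) and TGANTCA (AP-1). The Krt8 stretch held TATAAA on each strand in 1 overlapping site that started 106 bases before the annotated start. The Krt18 stretch held no TATAAA but a GCCNNNGGC site, which reads the same on both strands, 104 bases and a GGGCGG 84 bases before the start. The Krt23 stretch held a CCAAT that started 22 bases before it. Over all 33469 promoters in that table, 12.9% held the TATA box, 34.0% the CCAAT box, 30.5% the GC box, 12.6% the AP-2 motif and 6.34% the AP-1 motif in the same window. Among the 34 promoters of members in the table, 20 held the TATA box, 16 the CCAAT box, 4 the GC box, 4 the AP-2 and 1 the AP-1 motif. These are matches of letters and were not tested as binding sites.

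The luminal and basal keratins other than Krt20 stood above the low end of the array. Values are log2 array signals, so probesets of different genes are not compared as amounts, and each gene is placed only by whether it stood above the low end of the array. Luminal Krt19 had the mean 11.39, Krt18 9.81, Krt8 9.70, Krt23 8.04 and Krt7 7.55 over the 50 rats, and basal Krt14 had the mean 10.92, Krt15 10.07 and Krt17 9.98. All 8 were above the 30th percentile of all values, which was 6.35. The exception among the luminal and simple keratins was Krt20, a keratin of gut and urinary tract, with a mean of 4.40. The 38 members outside the luminal and basal classes had means of 4.29 to 7.40, and 15 of them passed the signal filter described next.

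**Figure D1:**
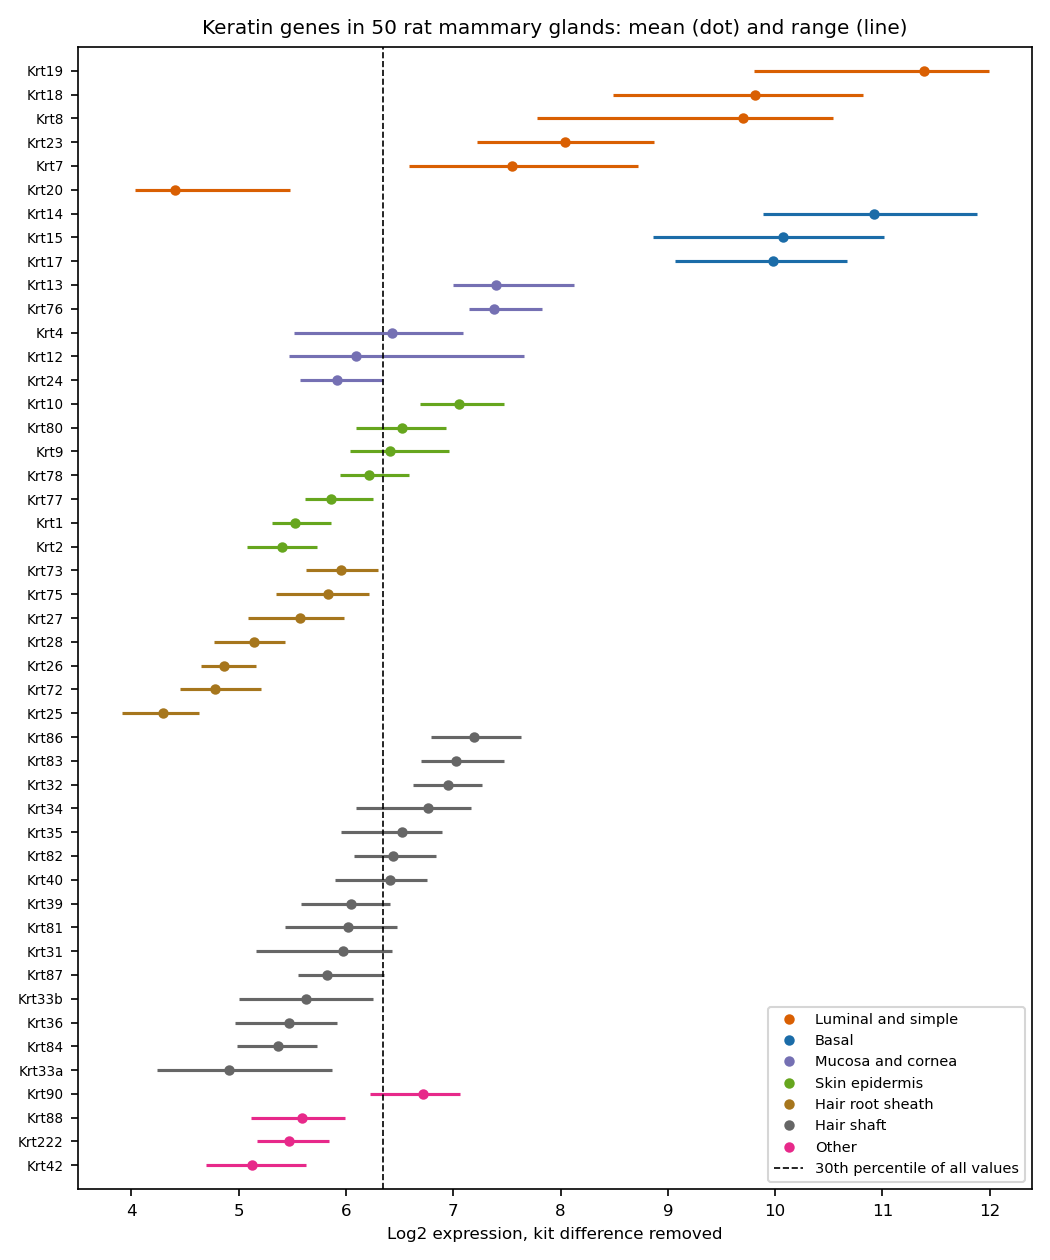
Mean (dot) and range over 50 rats (line) of the log2 signal of each of the 47 keratin genes, by class, with the kit difference removed; the dashed line is the 30th percentile of all values (6.35). Apart from Krt20, the luminal and basal keratins lie to the right of the line, and the hair root sheath keratins all have means to its left.

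Most skin and hair keratins fell short of the signal filter, and their spread was mostly near that of all genes. Krt1 and Krt10, partners in the suprabasal epidermis, had means of 5.53 and 7.05, and the per-rat values of Krt1, with the kit difference removed, ran only from 5.31 to 5.86. Krt2 and Krt77, also epidermal, had means of 5.41 and 5.86. The 7 hair root sheath keratins had means of 4.29 to 5.96 and none passed the signal filter, which asked for a group mean above the 30th percentile in at least 1 group. Krt25 and Krt27, type I keratins of the inner root sheath, had means of 4.29 and 5.58. Of the 15 hair shaft keratins 7 passed it, with means up to 7.19, and Krt35, an early type I hair keratin, had a mean of 6.52. The residual SD of the 38 members outside the luminal and basal classes, after group and kit, was 0.12 to 0.38 with a median of 0.19, and the median over all 18166 genes was 0.20. The 8 luminal and basal keratins above the line had residual SDs of 0.37 to 0.56. In all, 23 members passed the signal filter and 11 also lay in the upper part of the variance filter and were tested (Krt4, Krt7, Krt8, Krt12, Krt14, Krt15, Krt17, Krt18, Krt19, Krt23, Krt34). The other 36 were not counted as tested, and values given for them come from a limma fit of all 18166 genes.

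Keratin signals differed between the extraction kits. Krt8 was 1.28 higher on the log2 scale in Zymo than in Promega rats (SE 0.12; limma with Benjamini-Hochberg adjustment, adjusted p = 9.5e-13), Krt7 1.27, Krt14 1.23, Krt23 1.21, Krt15 0.77 and Krt19 0.70 higher. These 6 of the 11 tested members were called higher in Zymo rats, as were 25.6% of the 6628 tested genes. A call needs an adjusted p under 0.25 and a fold of at least 1.5. Of all tested genes 1694 were called higher and 2240 lower. Krt17 differed by -0.01 (SE 0.11), and Krt18 was 0.57 higher, short of the fold limit. Other genes of the gland epithelium mostly went the opposite way. Of 19 epithelial genes outside the keratins 11 were called lower and 2 higher in Zymo rats (median -0.77). Of 10 myoepithelial genes 9 were called lower (median -1.705). Treatment effects were therefore fitted with the kit as an additive term, and per-rat values below have the fitted kit difference taken out.

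One caution bears on Krt18. For 46 of the 47 members the 3 probesets before and the 3 after it in the array's numbering are annotated to the member's own chromosome. For Krt18 none of the 6 is, and all 6 are on chromosome 2. The values below are those of the probeset annotated to Krt18, and whether it reads the chromosome 7 gene or a similar sequence elsewhere was not tested.

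In parous rats luminal keratins were lower with DEP. Krt8, Krt18, Krt19 and Krt23 were called lower than in oil controls, which are 4 of the 11 tested members, against 11.2% of all tested genes called lower in this comparison. No member was called higher. The question is whether early and continued exposure to the phthalate changed the mammary transcriptome, and among the keratins 4 of the 5 tested luminal and 0 of the 3 basal ones were called in limma, with 4 luminal and 0 basal at an unadjusted p under 0.05. In all 6 of the 47 members had such a p, the others being Krt31 and Krt9 (0.23 higher), both outside the filters. Among the tested genes such a p was found for 4 of the 11 members and for 2160 of all 6628.

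Krt8, the type II keratin of luminal cells, was 9.85, 10.33, 9.68, 9.69 and 10.05 in the 5 parous oil rats and 8.11, 9.19, 7.78, 8.68 and 8.79 in the 5 parous DEP rats. In these values, which have the kit difference removed, the highest DEP rat lay below the lowest control. The deposited Krt8 values overlapped, at 9.04 to 10.69 in oil and 8.15 to 9.83 in DEP rats. How many of all tested genes show no overlap was not counted, for Krt8 or for the keratins below. With the kit difference removed the group means were 9.92 ± 0.27 and 8.51 ± 0.56 (SD, n = 5 each). The fitted difference was -1.41 (SE 0.27; adjusted p = 6.3e-04 in limma), a 2.65-fold lower signal.

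Krt19, the smallest keratin and a type I protein of ductal luminal cells, was 11.36, 11.62, 11.19, 11.51 and 11.63 in parous oil rats and 10.01, 11.15, 9.80, 10.72 and 9.95 in parous DEP rats. These values did not overlap, although 1 DEP rat (11.15) came close to the lowest control (11.19). The deposited Krt19 values overlapped, at 10.84 to 11.98 in oil and 9.6 to 11.5 in DEP rats. With the kit difference removed the means were 11.46 ± 0.19 and 10.33 ± 0.58 (SD, n = 5 each). The difference was -1.14 (SE 0.23; limma, adjusted p = 0.00122), or 2.20-fold.

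Krt18, the type I partner of Krt8, was 9.99, 10.23, 9.86, 9.79 and 9.94 in parous oil rats and 8.58, 9.56, 8.65, 8.96 and 8.49 in parous DEP rats. Here too every DEP rat lay below every control. The deposited Krt18 values overlapped, at 9.57 to 10.23 in oil and 8.21 to 9.84 in DEP rats. With the kit difference removed the means were 9.96 ± 0.17 and 8.85 ± 0.43 (SD, n = 5 each). The difference was -1.12 (SE 0.26; limma, adjusted p = 0.0033), or 2.17-fold.

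Krt23, a type I keratin of simple and glandular epithelia, was 8.55, 7.76, 7.95, 7.56 and 8.86 in parous oil rats and 7.38, 7.94, 7.49, 7.33 and 7.22 in parous DEP rats. Its groups overlapped: the highest DEP rat was above 2 of the 5 controls. The difference was -0.66 (SE 0.25; limma, adjusted p = 0.0664), and the call was lost without the oil rat at 8.55 (difference -0.57) or the one at 8.86 (-0.45).

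Krt7, a type II keratin of duct-lining cells, did not pass. It was 7.32, 7.51, 7.48, 7.23 and 7.38 in parous oil rats and 6.59, 7.35, 6.79, 7.35 and 7.07 in parous DEP rats, with a difference of -0.35 (SE 0.25; limma, adjusted p = 0.313). Krt20, outside the filters, had fitted differences of 0.03 in parous and 0.38 (95% interval 0.02 to 0.73, unadjusted p = 0.0386 in limma) in nulliparous DEP rats, on the higher side.

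The basal keratins had smaller differences that did not pass the test. Krt14, which with Krt5 forms the filament of basal cells, was 10.88, 11.07, 10.45, 10.47 and 10.84 in parous oil rats and 10.54, 11.60, 10.43, 10.13 and 10.02 in parous DEP rats. The DEP values spanned both sides of the controls, and the difference was -0.20 (95% interval -0.84 to 0.44; limma, adjusted p = 0.668). Krt15, found in basal layers of stratified epithelia and hair follicle stem cells, differed by -0.32 (-1.02 to 0.38). Krt17, a basal and stress-inducible type I keratin, differed by -0.01 (-0.51 to 0.48). The intervals of Krt14 and Krt15 include differences of the size seen for Krt23. One DEP rat, whose Krt8, Krt18, Krt19 and Krt23 values were the highest of the 5, also had their highest Krt14 (11.60), Krt15 (10.85) and Krt17 (10.46). Without it Krt15 was called lower as well, making 5 calls.

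**Figure D2:**
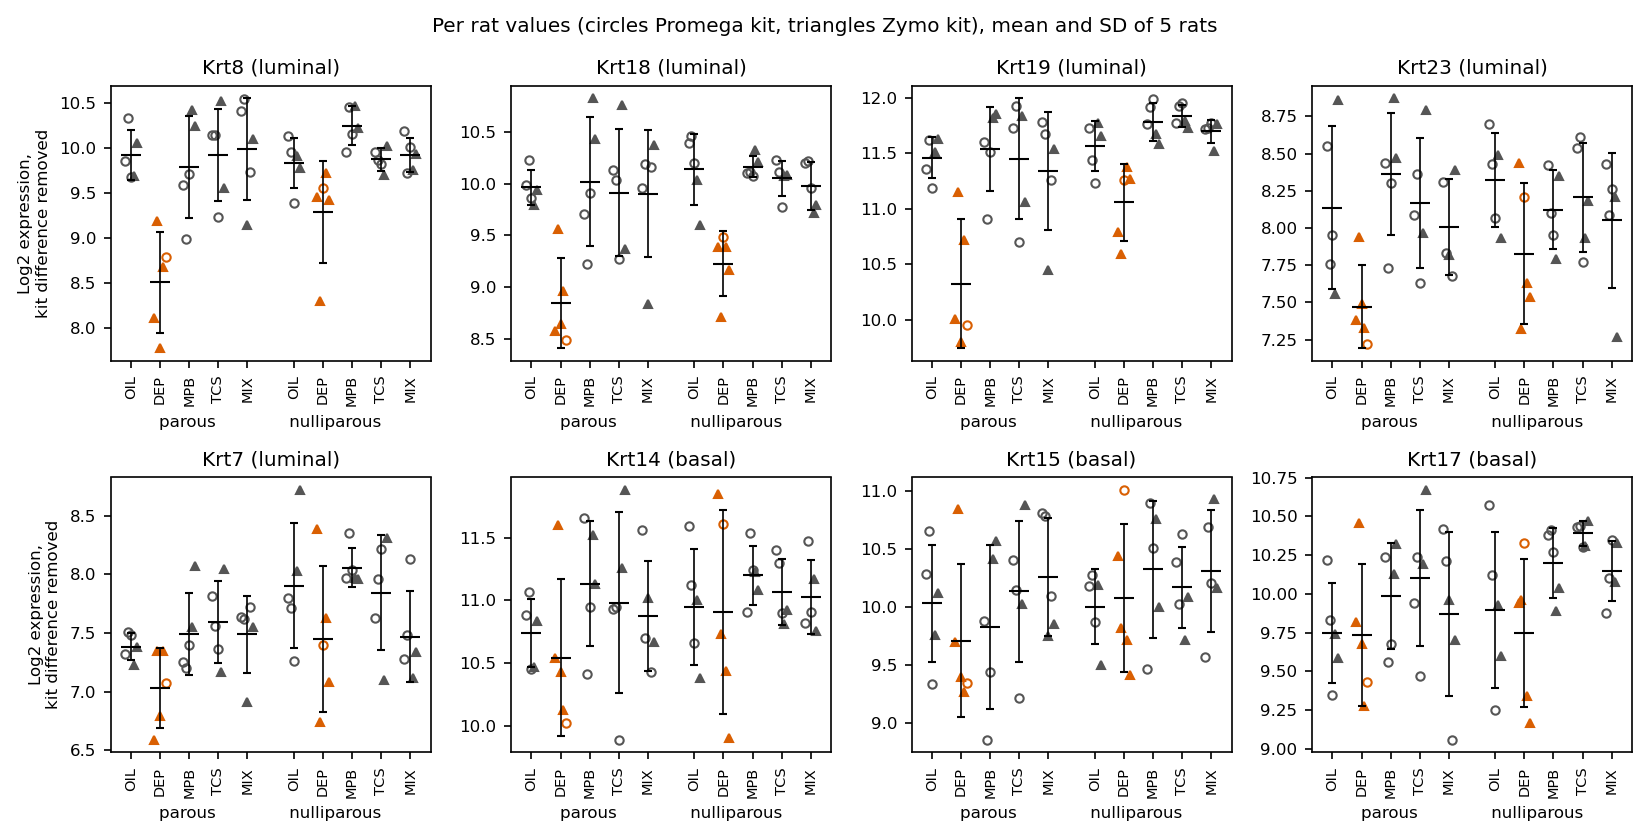
Log2 signal of 5 luminal and 3 basal keratins in each of the 50 rats after removal of the kit difference (circles Promega, triangles Zymo, DEP rats in orange), with group mean and SD of 5 rats. All parous DEP rats lie below all parous oil rats for Krt8, Krt18 and Krt19, and the groups overlap for Krt14, Krt15 and Krt17.

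A log2 ratio of a luminal to a basal keratin within each rat removes what both share. This comparison was chosen after the values were seen. The log2 ratio of Krt8 to Krt14 was -0.82 ± 0.12 in parous oil and -2.03 ± 0.64 in parous DEP rats (SD, n = 5 each), a difference of -1.21 with no overlap (-1.04 to -0.74 against -2.64 to -1.24). It was -1.45 among Zymo rats and -0.39 among Promega rats, where DEP is 1 rat. The log2 ratio of Krt18 to Krt14 differed by -0.92, also with no overlap, and that of Krt19 to Krt14 by -0.94 with overlapping ranges (-0.62 to 0.59 against 0.48 to 1.04). In nulliparous rats the 3 differences were -0.50, -0.87 and -0.47. The genes of these ratios were picked with their differences known, so the ratios are descriptions and carry no test, and they do not stand for the other keratins of either class.

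Within each kit the differences of the tested luminal keratins in parous rats kept their sign. Among Zymo rats (4 DEP, 2 oil) Krt8 differed by -1.43 (SE 0.40), Krt19 by -1.15 and Krt18 by -0.93, with limma adjusted p-values of 0.241, 0.245 and 0.387, so that Krt8 and Krt19 were called and Krt18 was not. Basal Krt14 (0.016) and Krt17 (0.14) turned to the higher side among Zymo rats. Among Promega rats, where DEP is 1 rat and its spread is unknown, Krt8 differed by -1.16, Krt19 by -1.44 and Krt18 by -1.54, given here as values with no test. With no kit term the calls were Krt18 (-0.89) and Krt19 (-0.86), and Krt8 (-0.90, adjusted p = 0.288) and Krt23 (-0.18) were not called.

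The keratins fell beside other genes of luminal epithelium. Of 19 epithelial genes outside the keratins, 16 were called lower in parous DEP rats, with a median difference of -1.04 against a median of -0.12 over all tested genes. They include Prom1 (-1.88, SE 0.36), a membrane protein of luminal cells, the prolactin receptor Prlr (-1.69, SE 0.28) and the adhesion molecule Epcam (-1.66, SE 0.26). Of 10 myoepithelial genes outside the keratins none was called, with a median of -0.26 and all 10 on the lower side. With the mean of the 19 epithelial genes as a covariate, the parous DEP differences were -0.26 for Krt8, 0.07 for Krt18, -0.15 for Krt19 and -0.09 for Krt23, and none was called. That mean, centred per gene, ran from -1.26 to -0.27 in parous DEP and from -0.10 to 0.33 in parous oil rats, with no overlap. The covariate thus largely stands in for the treatment, so no conclusion is drawn from the lost calls. Among genes that anchor keratin filaments at desmosomes, Pkp2 (-1.14, SE 0.25) and Pkp3 (-0.61, SE 0.20) were called lower, 2 of 13 tested, a share near the 11.2% of all tested genes. Of 7 tested intermediate filament genes outside the keratins, none was called. Of the 8 tested epidermal genes outside the keratins 2 were called lower, Serpinb5 (-1.65, SE 0.32) and Aqp3 (-0.65, SE 0.40); both are also made by mammary epithelium.

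Some markers of lymphocytes were called higher with DEP, with wide intervals. All 10 lymphoid genes were on the higher side in parous DEP rats, with a median difference of 1.30, and 4 were called higher, against 5.39% of all tested genes called higher. Among them were the T cell genes Cd3e (1.46, SE 0.84), Cd3d (1.39, SE 0.80) and Cd2 (1.34, SE 0.74). The leukocyte gene Ptprc had a mean of 10.84 over the 50 rats. The mean score of the list ran from -1.19 to 2.48 in parous DEP and from -1.56 to 2.14 in parous oil rats, so the groups overlapped. The list also had medians of 1.03 in nulliparous TCS rats, with all 10 genes on the higher side, and -0.84 in parous MIX rats, with all 10 on the lower side, none called. With that score as a covariate, an alternative added after the values were seen, Krt8 (-1.17), Krt18 (-0.97) and Krt19 (-0.96) were still called and Krt23 (-0.48) was not. Of 4 tested milk protein genes 3 were called lower, Wap (-1.97, SE 0.70), Csn1s2a (-0.96, SE 0.48) and Csn2 (-0.64, SE 0.27). Of 9 tested adipocyte genes none was called. The part of these other cell types in the keratin differences was not tested beyond the covariates given.

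In nulliparous rats 1 keratin was called lower with DEP. Krt18 was 10.39, 10.46, 10.20, 10.03 and 9.60 in the nulliparous oil rats and 9.39, 8.71, 9.48, 9.39 and 9.17 in the nulliparous DEP rats, with every DEP rat below every control. The difference was -0.91 (SE 0.26; limma, adjusted p = 0.0538), or 1.88-fold. It was the only one of the 11 tested members called, against 5.22% of all tested genes called lower. Within the Zymo rats the Krt18 difference was -0.65 (adjusted p = 0.574), and with no kit term -0.68 (adjusted p = 0.395), both short of the limit. Within the Promega rats, where DEP is 1 rat, it was -0.87, given with no test.

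Krt19 met the limit on p but not on fold in nulliparous rats. It was 11.73, 11.44, 11.23, 11.77 and 11.66 in oil and 10.79, 10.59, 11.26, 11.38 and 11.27 in DEP rats, and 3 of the DEP rats were above the lowest control. The difference was -0.51 (SE 0.23; limma, adjusted p = 0.227). Krt8 was 10.13, 9.95, 9.39, 9.91 and 9.78 in oil and 9.46, 8.30, 9.56, 9.72 and 9.42 in DEP rats. The groups overlapped, with 1 DEP rat (8.30) far below the others, and the difference was -0.54 (SE 0.27; limma, adjusted p = 0.28). Krt23 differed by -0.49 and Krt7 by -0.46, with adjusted p-values of 0.297 and 0.346. Beside Krt18, leaving out the oil rat with the lowest Krt8 brought in Krt7, Krt8 and Krt19, to 4 calls. Leaving out the DEP rat with the highest Krt8 brought in Krt8, Krt12 and Krt19, also to 4. Leaving out the DEP rat with the highest Krt14 brought in Krt7 and Krt23, to 3 calls, and leaving out the Promega DEP rat brought in Krt23, to 2.

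The basal keratins of nulliparous DEP rats lay close to the controls on average and were widely spread. Krt14 ran from 10.38 to 11.59 in oil and from 9.90 to 11.85 in DEP rats, and the difference was -0.04 (95% interval -0.68 to 0.59). Krt15 differed by 0.08 (-0.62 to 0.78) and Krt17 by -0.15 (-0.64 to 0.35). Of the 19 epithelial genes outside the keratins, 10 were called lower in nulliparous DEP rats (median -0.65), and none of the 10 myoepithelial genes (median 0.01). With the epithelial mean as covariate Krt18 differed by -0.21, Krt8 by 0.14 and Krt19 by 0.07, none called. That mean ran from -0.69 to -0.27 in nulliparous DEP and from -0.18 to 0.50 in nulliparous oil rats. It did not overlap here either, so no conclusion is drawn from the lost call. The 10 lymphoid genes had a median difference of 1.09, with none called. Of the other lists, Pkp2 (-0.78, SE 0.25) and Serpinb5 (-0.92, SE 0.32) were called lower and the adipokine Retn (0.86, SE 0.33) higher, against 0.302% of all tested genes called higher, and no milk protein gene was called.

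**Figure D3:**
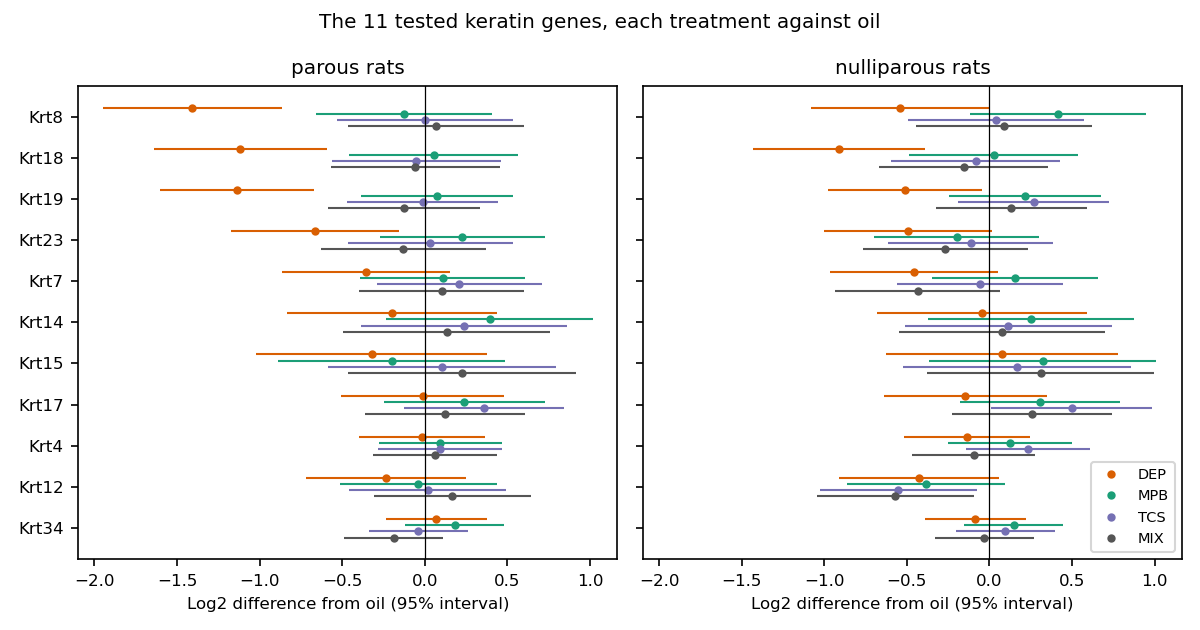
Fitted log2 differences from oil, with 95% intervals, of the 11 tested keratins for the 4 treatments in parous (left) and nulliparous rats (right). The intervals of Krt8, Krt18, Krt19 and Krt23 for DEP lie below 0 in parous rats, and those of MPB, TCS and MIX span 0 for these genes.

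Whether parity changed the DEP effect was tested as an interaction, and no member was called. The parous effect minus the nulliparous effect was -0.87 for Krt8 (SE 0.37, unadjusted p = 0.0244; limma, adjusted p = 0.998) and -0.63 for Krt19 (SE 0.32, adjusted p = 0.998). For Krt18 it was -0.21 (95% interval -0.93 to 0.52). Of the 47 members 3 had an unadjusted p under 0.05 in this interaction, and 0% of all genes were called in it or in those of MPB, TCS and MIX. Those 3 interactions had 0, 1 and 3 members with an unadjusted p under 0.05. Of the 6628 tested genes 96, 117 and 81 had such a p in them, in the same order.

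The other treatments called no keratin in limma, each against the same oil rats of its parity as DEP. In parous rats 0.0151% of all genes (1 gene) were called for MPB and 0% for TCS and MIX. In nulliparous rats 0% were called for each. An unadjusted p under 0.05 was found in parous rats for 0 of the 47 members with MPB and TCS and 1 (Krt9) with MIX. Among nulliparous rats the counts were 0 for MPB, 4 for TCS (Krt10, Krt12, Krt17, Krt36) and 1 (Krt12) for MIX. Of the 6628 tested genes such a p was found for 99, 132 and 262 in parous rats for MPB, TCS and MIX. The tested genes with such a p in nulliparous rats were 233 for TCS and 46 for MIX. These totals leave out genes outside the filters, such as Krt9, Krt10 and Krt36, so the member counts cannot be set directly against them. In parous rats the Krt8 difference was -0.13 for MPB (95% interval -0.66 to 0.40), 0.00 for TCS (-0.53 to 0.53) and 0.07 for MIX (-0.46 to 0.60). Those of Krt18 were 0.05, -0.05 and -0.06, and those of Krt19 0.07, -0.01 and -0.13. Krt17 in nulliparous TCS rats had the largest basal difference, 0.50 (SE 0.24, adjusted p = 0.966).

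The mixture contains DEP, so DEP and MIX rats were also compared directly, without the oil rats. This comparison was added after the values were seen. In parous rats 3 keratins were lower with DEP alone than with MIX: Krt8 by a difference of -1.48 (SE 0.27; limma, adjusted p = 8.9e-04), Krt18 by -1.06 (SE 0.26, adjusted p = 0.00541) and Krt19 by -1.01 (SE 0.23, adjusted p = 0.00373). Krt8 was 10.41, 10.54, 9.15, 9.73 and 10.10 in parous MIX rats, and only the MIX rat at 9.15 lay within the range of the DEP rats. Leaving out that rat gave 6 calls, leaving out the MIX rat at 9.73 gave 5, and leaving out the DEP rat with the highest Krt14 gave 6. The 3 calls stand against 12.9% of all genes called lower. In nulliparous rats Krt18 (-0.75, SE 0.26, adjusted p = 0.202) and Krt19 (-0.64, SE 0.23, adjusted p = 0.218) were called lower, against 2.43% of all genes, and both calls were lost without any one of 5 rats (2 DEP, 3 MIX). In parous rats the 10 lymphoid genes were all called higher in DEP than in MIX (median 2.20), against 11.5% of all tested genes. Among the Zymo rats alone none of the 3 parous calls held (Krt8 -1.18, Krt18 -0.67, Krt19 -0.58).

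Across treatments no keratin was called between parous and nulliparous glands in limma. An unadjusted p under 0.05 was found for 3 of the 47 members, the tested Krt7 and Krt19 and the untested Krt82. Of the 6628 tested genes 2086 had such a p. Krt7, Krt8, Krt17 and Krt19 met the limit on p and not that on fold. Krt19 differed by -0.36 (SE 0.10; limma, adjusted p = 0.011), Krt7 by -0.35 (SE 0.11, adjusted p = 0.0261) and Krt8 by -0.21 (SE 0.12, adjusted p = 0.219). Of all tested genes 0.875% were called lower in parous rats. The basal keratins differed by -0.17 (Krt14), -0.18 (Krt15) and -0.19 (Krt17). A hair shaft keratin outside the variance filter, Krt82, had a difference of 0.20 (SE 0.04). Its group means were 6.47 to 6.58 in the parous and 6.27 to 6.41 in the nulliparous groups, next to the 30th percentile of all values, and in a fit of all genes its adjusted p was 0.00157.

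Of the 38 keratins outside the luminal and basal classes only 3 (Krt4, Krt12, Krt34) were tested, and none was called for any treatment. The others could not be called, whatever their values. In parous DEP rats the 7 epidermal keratins differed from oil by -0.03 to 0.23, the 7 root sheath keratins by -0.06 to 0.09 and the 15 hair shaft keratins by -0.41 to 0.22, with class medians of 0.00, 0.00 and 0.05. In nulliparous DEP rats the same classes ran from -0.25 to 0.12, from -0.13 to 0.02 and from -0.10 to 0.26. The lowest of these, Krt31, a type I hair keratin, was 6.42, 5.99, 5.94, 6.43 and 5.83 in parous oil rats and 5.58, 5.16, 5.72, 5.85 and 6.27 in parous DEP rats. Its groups overlapped and its mean of 5.97 was under the signal limit. The difference was -0.41 (SE 0.14, adjusted p = 0.0797 in a limma fit of all genes).

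**Figure D4:**
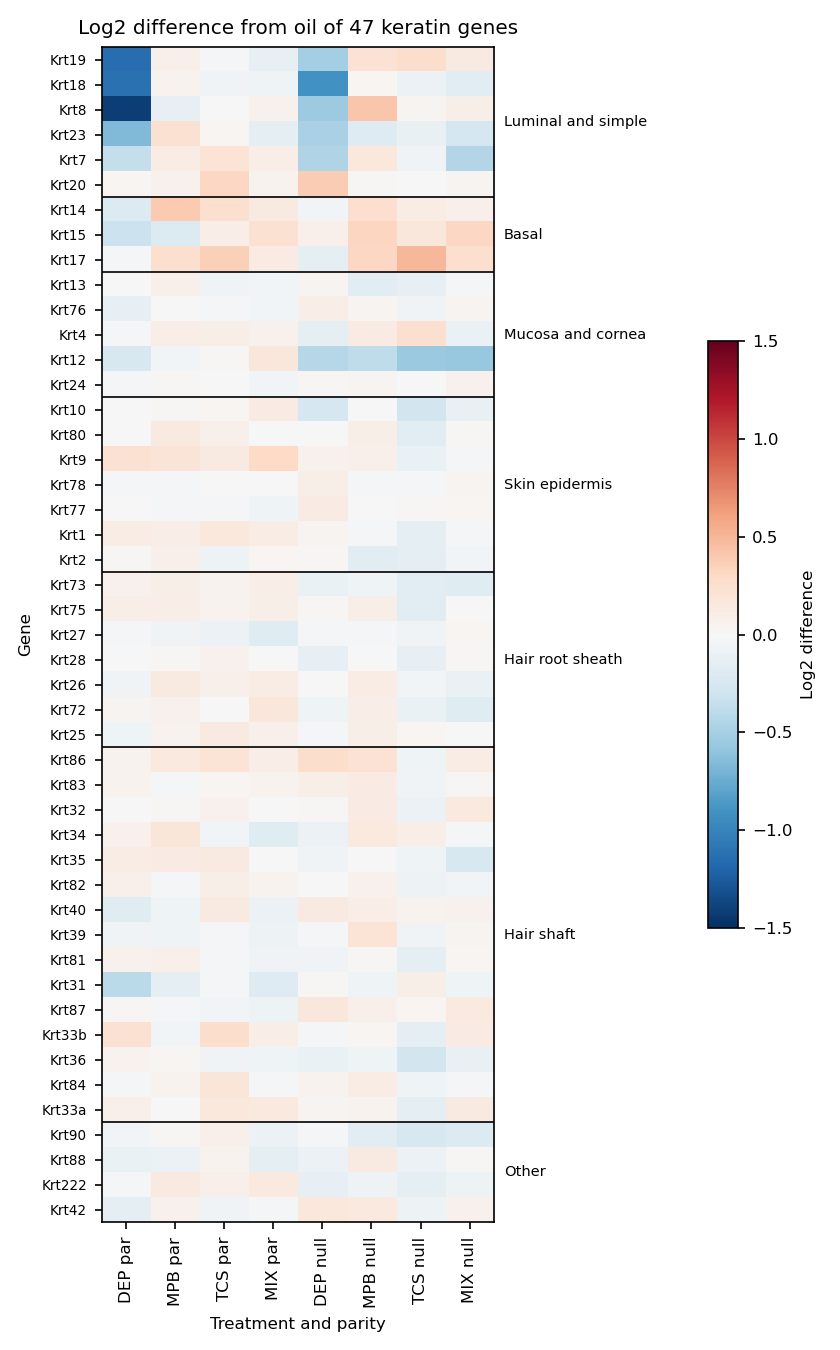
Fitted log2 difference from oil of all 47 keratin genes (rows, by class) for the 4 treatments in parous (par) and nulliparous (null) rats; blue is lower and red higher than oil. The darkest cells are those of Krt8, Krt18 and Krt19 in parous DEP rats, from -1.12 to -1.41, and the skin and hair rows stay within -0.41 and 0.30.

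Krt12, a keratin of the corneal epithelium with a mean of 6.09 here, was high in a few rats. It was 7.65 in 1 nulliparous oil rat and 6.05 to 6.43 in the other 4 oil rats, and 7.42 in 1 nulliparous DEP rat with 5.46 to 6.02 in the other 4. The differences from oil in nulliparous rats were -0.43 for DEP, -0.38 for MPB, -0.55 for TCS and -0.57 for MIX, none called. Without the oil rat at 7.65 they were -0.10, -0.09, -0.26 and -0.27. The DEP rat at 7.42 also had the highest Krt8 of its group, and without that rat Krt12 was called lower with DEP.

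Luminal Krt8 varied with Krt18 and Krt19, and basal Krt14 with Krt17, from rat to rat. Correlations were taken over 50 rats as deviations from group and kit, in a family of 7 pairs, with two-sided permutation p-values (1e-05 is the smallest that the resampling can give). Krt8 correlated with Krt18 (Pearson r = 0.78, permutation p = 1e-05, adjusted 1.75e-05; Spearman rho = 0.71, permutation p = 1e-05) and with Krt19 (r = 0.82, permutation p = 1e-05, adjusted 1.75e-05; rho = 0.73, permutation p = 1e-05). The basal pair Krt14 and Krt17 had r = 0.78 and rho = 0.73 at the same p. Krt18 and Epcam, which share the luminal compartment but are of different families, had r = 0.76 and rho = 0.67 at the same p. Without the 2 rats farthest from the median of the first gene these 4 values of r were 0.75, 0.79, 0.73 and 0.66, and within the 26 Promega and 24 Zymo rats they were between 0.67 and 0.90. With groups and kit left in, Krt14 and Krt17 had r = 0.40.

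The pair of a luminal and a basal gene, Krt18 and Krt14, had r = 0.37 (permutation p = 0.00895, adjusted 0.0125; rho = 0.34, permutation p = 0.0158), with 0.59 in Promega and 0.12 in Zymo rats, and 0.38 without the 2 farthest rats. The skin pair Krt1 and Krt10 had r = 0.23 (permutation p = 0.105, adjusted 0.105; rho = 0.13, permutation p = 0.362), and -0.13 in Promega and 0.46 in Zymo rats. Krt14 and Krt10 had r = 0.29 (permutation p = 0.0415, adjusted 0.0485) and rho = 0.28 (permutation p = 0.0499, adjusted 0.0582). Without the 2 farthest rats r fell to 0.20 (permutation p = 0.161, adjusted 0.188). Before group and kit were removed Krt1 and Krt10 had r = 0.51 and Krt14 and Krt10 r = 0.68. Differences between these correlations were not tested, and Krt7, Krt15 and Krt23 were not paired. The pairs share arrays and tissue pieces.

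**Figure D5:**
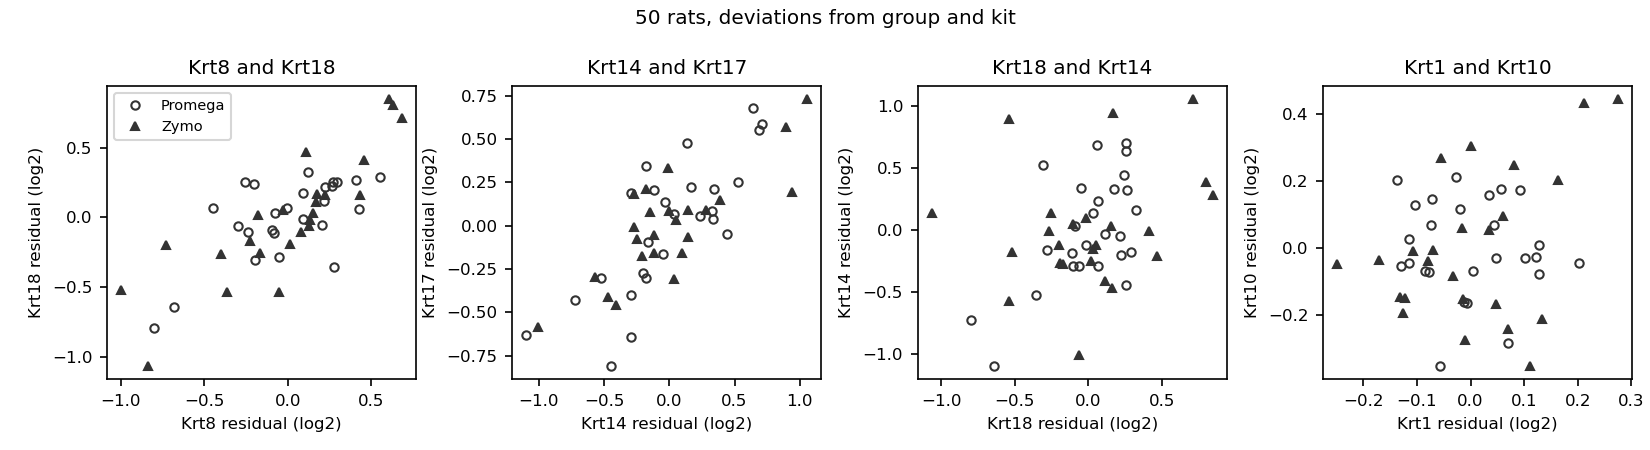
Deviations of each of the 50 rats from its group and kit (log2) for 4 pairs of keratins, with circles for Promega and triangles for Zymo rats. The luminal pair Krt8 and Krt18 (r = 0.78) and the basal pair Krt14 and Krt17 (r = 0.78) follow a line, while Krt18 with Krt14 (r = 0.37) and Krt1 with Krt10 (r = 0.23) scatter.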

How the data were processed

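The authors hybridised mammary RNA to Affymetrix Rat Gene 2.0 ST arrays and deposited log2 signals per probeset, background-corrected, quantile-normalised and summarised by RMA in Affymetrix Expression Console, whose version is not given in the sources used here. The submitters' processing notes name R 3.0.2. The methods describe a ComBat adjustment for the extraction kit, and the deposited log2 values still differed between kits, so the kit was a term in each fit. Probesets were named from the platform annotation, in which 18511 carry 1 symbol, 575 several and 17599 none, and the highest mean was kept per gene. As in the methods, genes were kept if a group mean exceeded the 30th percentile and the interquartile range was in the upper 50%, both after removal of the kit difference, leaving 6628. One model of 10 groups and kit over 50 rats was fitted with limma 3.58.1 in R 4.3.3 (lmFit, eBayes, Benjamini-Hochberg adjustment; the data.table package, version 1.17.8), tested on simulated data. A call needed an adjusted p under 0.25 and a fold of at least 1.5, the limits of the methods. The members and lists were chosen with earlier results of these data known. Named members are those called in any comparison, a listed choice of luminal (Krt7, Krt8, Krt18, Krt19), basal, epidermal, inducible and hair keratins, and the 2 with the largest spread; others, including Krt9, Krt12, Krt20 and Krt82, were named after their values were seen. Other lists give up to 3 called genes. Arrays of different rats correlated at 0.851 to 0.993, and none differed so little as to be a repeat. The number of arrays limits the precision. Pairs and ratios used Python 3.11.15, scipy 1.17.1, numpy 2.4.6 and pandas 2.3.3, with 100000 resamples for correlations, and figures matplotlib 3.10.9. Krt5 with Krt14 and Krt14 with Acta2, also set out, could not be computed because Krt5 and Acta2 are not among the genes analysed here. Promoter sequences are from RefSeq (GRCr8).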

Additional observations from a re-analysis of the deposited data

Results flagged for a closer look

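Single rats stood apart from the other 4 of their group, by a gap over range above Dixon's 95% value of 0.71, in 8 of 110 cases (11 tested keratins in 10 groups), where chance gives about 1 in 20. Values are log2 signals with the kit difference removed. One parous MIX rat was lowest for Krt7 (6.91 against 7.55 to 7.72) and Krt18 (8.84 against 9.96 to 10.37). One nulliparous DEP rat was lowest for Krt8 (8.30 against 9.42 to 9.72). One parous DEP rat was highest for Krt15 (10.85 against 9.27 to 9.70). Krt12 was highest in a nulliparous DEP rat (7.42 against 5.46 to 6.02) and in a nulliparous oil rat (7.65 against 6.05 to 6.43). A nulliparous MPB rat was highest for Krt7 (8.35 against 7.96 to 8.04), and a nulliparous MIX rat was lowest for Krt19 (11.52 against 11.72 to 11.77).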

How the results depend on the processing

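The number of keratins called was recomputed under 16 alternatives and without each rat in turn. It stayed at 0 under all of these for MPB, TCS and MIX in either parity and for the 4 interactions. For DEP in parous rats (4 called) it was 2 with no kit term, 2 in Zymo rats alone and 0 with the epithelial score as covariate; it was 3 at an adjusted p under 0.05 and with the lymphoid or epidermal score, where Krt23 was lost, and 3 with filters on the deposited values, where Krt18 was not among the genes tested; without single rats it was 3 to 5. For DEP in nulliparous rats (1 called) it was 0 with no kit term, in Zymo or Promega rats alone, at an adjusted p under 0.05, with the epithelial score and with filters on the deposited values; it was 2 with no fold limit and 4 with array weights, and 1 to 4 without single rats. For DEP against MIX in parous rats (3 called) it was 0 in Zymo rats alone and with the epithelial score, 7 in Promega rats alone, 8 with no fold limit and 5 with array weights, and 3 to 6 without single rats. In nulliparous rats (2 called) it was 0 with no kit term, in Zymo or Promega rats alone, with the 2 groups alone, with no filter, at an adjusted p under 0.05, with the epithelial score and with filters on the deposited values, 1 with the lymphoid score, and 0 to 3 without single rats. For parity (0 called) it was 4 with no fold limit. With the epithelial score the DEP difference changed sign for Krt18 in parous (0.067) and for Krt8 (0.14) and Krt19 (0.071) in nulliparous rats. In both parities that score did not overlap between DEP and oil rats, so it largely stands in for the treatment. Among correlations, Krt1 with Krt10 was 0.51 with no removal of groups and kit, -0.13 in Promega and 0.46 in Zymo rats; Krt14 with Krt10 was 0.15 in Promega rats and 0.20 without the 2 farthest rats; Krt18 with Krt14 was 0.12 in Zymo rats. Where no construction of the alternative shows it, the cause was not tested. No paired analysis was possible because the groups share no replicate numbers. A fit of Promega rats alone has 1 DEP rat, which is assumed to vary like the other groups. Limits: each group has 5 rats, DEP groups hold 1 Promega rat each, and signals near the array's low end cannot show small changes.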
